A study of Rattus norvegicus with 30 samples.

Results

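Ucp2, which encodes uncoupling protein 2, was followed array by array across doses of dioctyl phthalate, a plasticiser, and culture times in primary rat hepatocytes. The members were all probe sets that the platform annotation gives to Ucp2, and 1 probe set of 31099 met that rule, for 1 of 10528 genes tested. Ucp2 was chosen for its levels on these same arrays, so its differences between groups are given as a description, with no p-value. The study used frozen hepatocytes of male Sprague Dawley rats, thawed and plated on collagen in 6-well plates under a Matrigel layer, and dosed on day 3 of culture. The 6 groups were vehicle, 250 µM and 1000 µM at 48 h, and vehicle, 250 µM and 1000 µM at 24 h after dosing. Dosing solutions, the vehicle included, were made in 1% DMSO, and the cells carried no genetic change that the labels name. Each group held 5 arrays, and each array came from a separate well. The labels do not give the age of the rats or the number of rats or vials behind the wells, so every error below measures the spread between wells, which may be technical.

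Uncoupling protein 2 is a carrier of the mitochondrial inner membrane and belongs to the SLC25 family. It is named for its likeness to Ucp1, the proton channel of brown fat, and it has been shown to carry four-carbon acids such as malate, aspartate and oxaloacetate out of the matrix in exchange for phosphate. In healthy liver its RNA is low in hepatocytes and high in Kupffer cells, the resident macrophages. Fatty acids and activators of PPARα, the nuclear receptor through which many phthalate esters act in rodent liver, are known to raise it in hepatocytes.

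The gene lies on the forward strand of rat chromosome 1, from 164251373 to 164257742 in the RefSeq annotation of build GRCr8, a span of 6370 bases. Its promoter window is shown because it holds the annotated start of the RNA whose level is described here. The window runs from 250 bases before the start to 50 bases after it, at chr1:164251123-164251422 on the forward strand of GRCr8, credited to RefSeq. Capitals mark the matches to an E-box, CANNTG, and to a KLF-type box, GGGCGTG, which is read here on the reverse strand.
Ucp2 promoter: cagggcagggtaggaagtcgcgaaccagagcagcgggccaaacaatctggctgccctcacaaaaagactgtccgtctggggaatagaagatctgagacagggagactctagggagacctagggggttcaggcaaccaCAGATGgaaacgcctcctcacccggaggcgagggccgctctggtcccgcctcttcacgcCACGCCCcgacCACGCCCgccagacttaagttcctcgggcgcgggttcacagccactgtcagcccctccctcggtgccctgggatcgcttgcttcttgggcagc
The window held 63.3% G and C, more than 80.8% of the 33469 promoters of the same length, whose median was 51.7%. All motifs were searched on both strands. The E-box match begins 113 bases before the start, and 72.1% of all promoters hold at least 1 such match. The KLF-type box, which was added to the search after the window had been read, matched at 2 places, which begin 54 and 43 bases before the start, and 7.42% of promoters hold it. The window held no match to the nuclear receptor half-site AGGTCA, found in 16.2% of promoters, or to a direct repeat of it with 1 base between (a DR1, the form to which PPARα binds), found in 0.0538%. It also held no GC box, GGGCGG (33.1% of promoters), no CCAAT box, CCAAT (37.5%), no TATA box, TATAAA (14.2%), and no CACGTG, an E-box of 1 fixed sequence (6.42%). A match is a run of letters and not a site shown to be bound, and sequence outside the window was not searched.

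The deposited values are array signals that the authors scaled, so that all 30 arrays had a trimmed mean between 1500.56 and 1500.66 and a median log2 signal between 8.44 and 8.79. Arrays of 1 group correlated with each other between 0.968 and 0.986 over probe sets. Probe sets in the lowest 40% by mean signal were set aside, which put the low-signal limit at a signal of 234.2, or 7.88 on the log2 scale. Ucp2 passed that limit on its mean over all arrays, 8.87, which was above 55.2% of probe sets, but its vehicle arrays at 24 h were all under it. Of 14 listed hepatocyte markers, 13 were on the array, and all 13, albumin and apolipoprotein A1 among them, had a mean above the limit.

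In vehicle cultures Ucp2 was higher at 48 h than at 24 h. Its signal was 400.3, 275.4, 234.1, 144.5 and 554.3 on the vehicle arrays at 48 h, against 50.05, 73.62, 64.34, 138.4 and 35.88 on those at 24 h. The lowest array at 48 h lay just above the highest at 24 h, so the groups did not overlap. The means were 321.7 ± 159.3 at 48 h and 72.46 ± 39.54 at 24 h (SD, n = 5 each), a log2 difference of 2.14 ± 0.30 (SE). Of the 10528 tested genes, 2 had a larger rise with time in vehicle. With all signals under the limit set to the limit the difference was 0.45, at place 698 counted from the largest rise, since all 5 vehicle arrays at 24 h and 2 of 5 at 48 h lay under it. In whole cultures, more RNA per cell and more cells of a type that makes the RNA cannot be told apart.

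At 24 h, 250 µM gave the highest and tightest Ucp2 signals. They were 868.8, 847, 860.5, 770.6 and 795.1 on the arrays at 250 µM, against the 35.88 to 138.4 of the vehicle arrays given above. The means were 828.4 ± 43.18 at 250 µM and 72.46 ± 39.54 in vehicle (SD, n = 5 each). The lowest treated array thus stood far above the highest vehicle array. The log2 difference was 3.64 ± 0.30 (SE), or 12.5-fold. Because the vehicle level was under the low-signal limit, the fold rests on weak signals, and measured from the limit instead it was at least 3.52-fold. Its place among the 10528 tested genes, counted from the largest rise, was 3 with the signals as given and 14 with all signals under the limit set to the limit.

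At 1000 µM and 24 h, Ucp2 was also above vehicle on every array, but its level varied widely between wells. The signals were 478.2, 246.4, 698.4, 485.3 and 785.9 on the arrays at 1000 µM, with a mean of 538.8 ± 211.3, against 72.46 ± 39.54 in vehicle (SD, n = 5 each). The log2 difference was 2.92 ± 0.30 (SE), or 7.57-fold, and at least 2.13-fold from the limit. Set against 250 µM at the same time, 4 of 5 arrays at 1000 µM lay below all arrays at 250 µM, and 1 lay within their range. The log2 difference between the doses, 1000 µM minus 250 µM, was -0.72 ± 0.30 (SE), and without replicate 2 of the higher dose it was -0.47. Among all tested genes, 33 had a more negative difference between the doses at 24 h.

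At 48 h Ucp2 had its highest levels, and they were close to each other at the 2 doses. Its signal was 1223, 1042, 895.6, 1212 and 1000 at 250 µM, with a mean of 1075 ± 141.3, against 321.7 ± 159.3 in vehicle (SD, n = 5 each). Its signal was 1194, 1222, 1127, 1093 and 1496 at 1000 µM, with a mean of 1226 ± 159.4 (SD, n = 5). No treated array at 48 h fell within the range of the vehicle arrays, whose highest was 554.3. The log2 differences from vehicle were 1.87 for 250 µM (3.66-fold) and 2.06 for 1000 µM (4.18-fold), each with an SE of 0.30. Between the doses the arrays overlapped, with 1 array at 1000 µM above all at 250 µM, and the log2 difference was 0.19 ± 0.30 (SE).

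**Figure D1:**
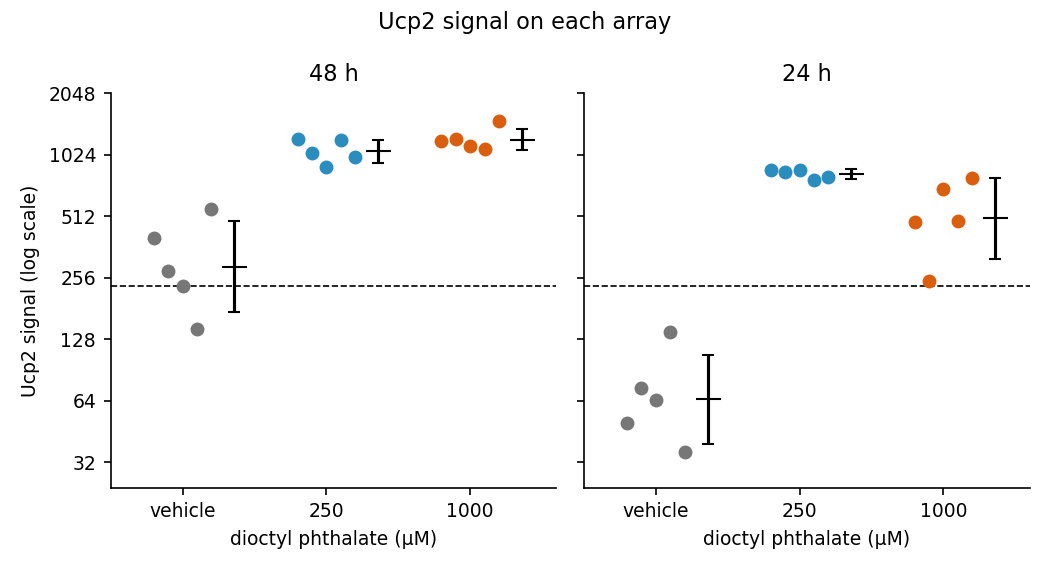
Ucp2 signal (log scale, base 2) on each of the 30 arrays by dose of dioctyl phthalate, with 48 h at left and 24 h at right. Points are arrays, the bar beside them is the mean ± SD of the log2 values (n = 5), and the dashed line is the low-signal limit of 234.2. All treated arrays lie above the line and above the vehicle arrays of their own time.

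Set in order of mean signal, the groups ran from vehicle at 24 h through vehicle at 48 h, 1000 µM at 24 h, 250 µM at 24 h and 250 µM at 48 h to 1000 µM at 48 h. Vehicle at 48 h overlapped with 1000 µM at 24 h, that group overlapped with 250 µM at 24 h, and the 2 doses at 48 h overlapped. The remaining neighbours in this order did not overlap. Within each dose the arrays at 48 h lay above all those at 24 h, with log2 differences, 48 h minus 24 h, of 0.37 at 250 µM and 1.28 at 1000 µM.

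The dose differences of Ucp2 were smaller at 48 h than at 24 h on the log2 scale. The change in the difference from vehicle, 48 h minus 24 h, was -1.77 ± 0.42 for 250 µM and -0.86 ± 0.42 for 1000 µM (SE). The treated levels were higher at 48 h, so the smaller differences go with the higher vehicle level at that time. With signals under the limit set to the limit, the changes became -0.08 for 250 µM and 0.83 for 1000 µM, so neither the size nor, for 1000 µM, the sign of the change holds apart from the weak vehicle signals at 24 h.

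RNA quality differed between the vehicle arrays at 48 h. The beta-actin ratio, 3' signal over 5' signal in log2, rises when RNA is broken. It was 2.44, 1.74, 1.70, 1.04 and 1.66 on vehicle arrays 1 to 5 at 48 h, and between 0.98 and 1.51 on all other arrays. The Ucp2 signals of vehicle arrays 1, 2, 3 and 5 at 48 h were 400.3, 275.4, 234.1 and 554.3. The highest of these thus went with the lowest of the 4 raised ratios, 1.66. The vehicle array with the unraised ratio of 1.04 was also the one with the lowest Ucp2 signal at 48 h, 144.5. With that array as the sole vehicle sample at 48 h, the log2 differences from vehicle were 2.88 for 250 µM and 3.07 for 1000 µM, the vehicle rise with time was 1.13, and the change in the 1000 µM difference with time was 0.15. With the ratio as a covariate the difference for 250 µM at 48 h was 2.42. Over all 30 arrays the deviation of Ucp2 from its group mean had a Pearson r of 0.44 with the like deviation of the ratio. The 3' over 5' ratio of GAPDH, in log2, was 0.28, 0.22, 0.24, 0.13 and 0.23 on vehicle arrays 1 to 5 at 48 h. On all other arrays it was at most 0.19. The r of the Ucp2 deviation was 0.11 with that of the GAPDH ratio and -0.36 with that of the array median. These values describe arrays that share 6 groups. The part of RNA quality in the vehicle level was not tested.

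**Figure D2:**
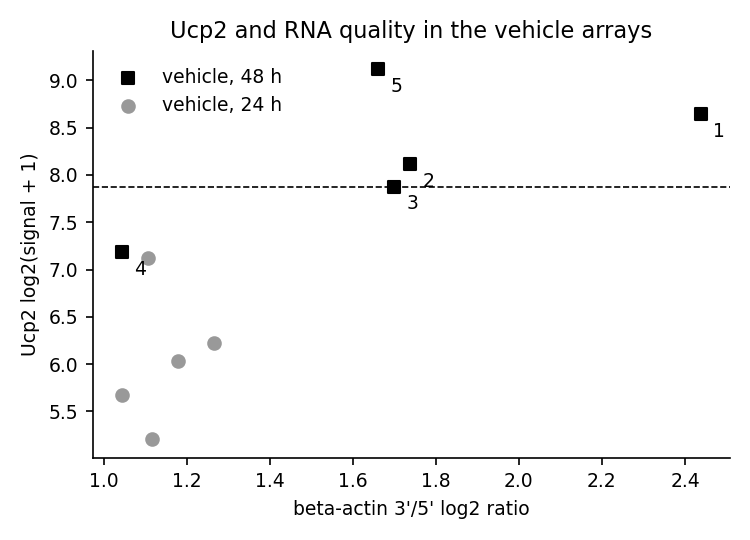
Ucp2 log2 signal against the beta-actin ratio (3' over 5', log2) on the 10 vehicle arrays, with squares for 48 h (numbered by replicate) and circles for 24 h; the dashed line is the low-signal limit. Array 4 of 48 h, with a ratio of 1.04, lies near the arrays of 24 h on both axes, and the other 4 have ratios from 1.66 to 2.44.

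The spread of Ucp2 between wells differed by group. Its log2 SD was 0.19 for 250 µM and 0.18 for 1000 µM at 48 h, and 58.5% and 56.4% of genes of a like level had a smaller one. In vehicle at 48 h it was 0.74, and 92.4% of such genes had a smaller one. In vehicle at 24 h, under the low-signal limit, it was 0.71, and only 3 genes were of a like level, 0% of them with a smaller SD. At 250 µM and 24 h the SD was 0.08, and only 3.84% of 2055 genes of a like level had a smaller one. At 1000 µM and 24 h it was 0.65, and 96.7% of 2023 genes of a like level had a smaller one. On the same 5 arrays Pdk4, the kinase that shuts off pyruvate dehydrogenase, spanned 14.85 to 15.11, and Ehhadh, an enzyme of peroxisomal fatty acid oxidation, spanned 14.02 to 14.18, while Ucp2 spanned 7.95 to 9.62, all in log2 signal. None of the 36 tested PPARα target genes described below had a larger SD than Ucp2 in that group. Most of these genes had a higher mean log2 signal there than Ucp2, whose mean was 8.97. Fabp3 and Cyp4a8 lay near that level, at 9.29 and 8.55, and Cyp4a8 had the largest SD of the 36, 0.47. No single Ucp2 array stood apart from its group by Dixon's ratio, which was 0.64 at most, against a critical value of 0.71.

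Ucp2 was then set beside lists of genes related to it by family, regulation, metabolism or position. In these lists a gene was called where limma's adjusted p, with Benjamini-Hochberg adjustment over all 10528 tested genes, was under 0.05, and Ucp2 is left out of the counts. Over all genes the share called was 41.2% for 250 µM and 29.7% for 1000 µM at 48 h, and 19.3% for 250 µM and 19.5% for 1000 µM at 24 h. Genes called higher made up 15.2% for 250 µM and 11.5% for 1000 µM at 48 h, and 8.31% for 250 µM and 8.28% for 1000 µM at 24 h. Genes called lower made up 26% for 250 µM and 18.3% for 1000 µM at 48 h, and 11% for 250 µM and 11.2% for 1000 µM at 24 h. With array medians centred, the balance for 1000 µM at 24 h turned, with 677 genes called higher and 607 lower, against 872 higher and 1179 lower with the signals as given. The median log2 difference over all tested genes lay between -0.07 and -0.03 in the 4 comparisons.

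Of the 5 other genes listed as uncoupling proteins, 4 were tested, and Slc25a30, which carries sulfur-containing anions, was the only one called in any comparison. Its log2 differences were 0.63 for 250 µM and 0.38 for 1000 µM at 48 h, and 0.27 for 250 µM and 0.43 for 1000 µM at 24 h, and all but that of 250 µM at 24 h were called higher. Both calls at 48 h were lost with the 4 vehicle arrays of raised actin ratio left out. That of 1000 µM at 48 h was also lost with array medians centred. These values are of the Slc25a30 probe set with the highest mean, and a second one also passed the filter. Its mean signal at 48 h was 566 ± 72.5 for 250 µM and 556 ± 142 for 1000 µM (SD, n = 5 each). Vehicle stood at 188 ± 81, under the low-signal limit, and no treated array overlapped with it. At 24 h the means were 380 and 433 against 321 in vehicle. Ucp3, the muscle form and the nearest gene before Ucp2 on the chromosome, was not called, with log2 differences of -0.21 and 0.17 at 48 h and 0.02 and 0.36 at 24 h for 250 µM and 1000 µM. Slc25a14, also named UCP5, lay between -0.46 and 0.30, and Slc25a27, also named UCP4, between -0.19 and 0.36, with no call. Ucp1 was under the low-signal limit, with group mean signals from 102 to 176. The log2 median of the 4 tested members was at most 0.24 in any comparison.

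With the signals as given, no other tested mitochondrial carrier of the Slc25 family had as large a difference as Ucp2 in the 4 comparisons. With all signals under the limit set to the limit, Slc25a42 passed Ucp2 for 1000 µM at 24 h, 1.40 against 1.09, and for 250 µM at 48 h, 1.82 against 1.73. Of 36 tested members, 15 were called higher and 7 lower for 250 µM at 48 h, 10 higher and 5 lower for 1000 µM at 48 h, 6 and 6 for 250 µM at 24 h, and 6 and 5 for 1000 µM at 24 h. Slc25a42 is the carrier that brings coenzyme A into the matrix, and it rose with log2 differences of 1.82 and 1.69 at 48 h and 1.52 and 1.40 at 24 h for 250 µM and 1000 µM. Slc25a20, the carnitine and acylcarnitine carrier of fatty acid oxidation, rose by 1.09 and 0.94 at 48 h and by 0.75 and 0.67 at 24 h for the same doses. Slc25a29, a carrier of basic amino acids, had log2 differences of -1.11 and -1.17 at 48 h and -0.97 and -0.98 at 24 h, and Slc25a33, a carrier of pyrimidine nucleotides, lay between -0.94 and -0.43, all called lower. With the 4 vehicle arrays of raised actin ratio left out, fewer carriers were called at 48 h, as over all genes. The calls of Slc25a33 at 48 h were lost.

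Genes known as PPARα targets of fatty acid breakdown rose almost without exception. Of 36 tested, 35 were called higher and none lower in each of the 4 comparisons, with a median log2 difference between 1.07 and 1.16, beside medians near 0 over all genes. With the signals as given, 2 members, Acot1, an acyl-CoA thioesterase, and Ehhadh, had a larger difference than Ucp2 at each dose at 24 h, and 9 for 250 µM and 7 for 1000 µM had one at 48 h. With all signals under the limit set to the limit, the members above Ucp2 numbered 6 for 250 µM and 17 for 1000 µM at 24 h, and 9 for 250 µM and 8 for 1000 µM at 48 h. For 250 µM at 24 h the log2 difference was 3.97 for Ehhadh and 7.13 for Acot1, whose vehicle mean was also under the limit and whose difference from the limit was 6.34. Other members were Cyp4a1, a fatty acid omega-hydroxylase, with 2.24 and 2.13 at 48 h and 2.67 and 2.72 at 24 h for 250 µM and 1000 µM, and Fabp1, which binds fatty acids in the cytosol, with 2.64 and 2.36 at 48 h and 1.62 and 1.58 at 24 h. Aqp7, a glycerol channel, rose by 2.15 and 1.96 at 48 h and by 1.24 and 1.30 at 24 h. Pdk4 rose by 2.69 and 2.54 at 48 h and by 2.98 and 2.81 at 24 h, and Cpt1a, which admits long-chain fatty acids to mitochondria, by 1.01 and 0.92 at 48 h and by 1.13 and 1.01 at 24 h. The comparisons of 1 time share their vehicle arrays.

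Set beside these target genes for the other comparisons, Ucp2 lay outside their range in some and inside it in others. In vehicle its rise with time, 2.14 in log2, was above that of all 36 members, of which Ehhadh had the highest at 1.22 and whose median was 0.17, but from the limit it was 0.45 and 6 members were above it. At 250 µM its 0.37 for 48 h minus 24 h was inside the range, with 11 members above and 25 below, and at 1000 µM its 1.28 was above all 36, the highest of which was Cd36 at 0.93. For 1000 µM minus 250 µM at 24 h, its -0.72 was below all 36 members, whose lowest was Acot1 at -0.37 and whose median was -0.02. For 1000 µM minus 250 µM at 48 h, its 0.19, with an SE of 0.30, was above all 36, whose highest was 0.04 and whose median was -0.13. These are positions of 1 chosen gene among a list and carry no test.

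**Figure D3:**
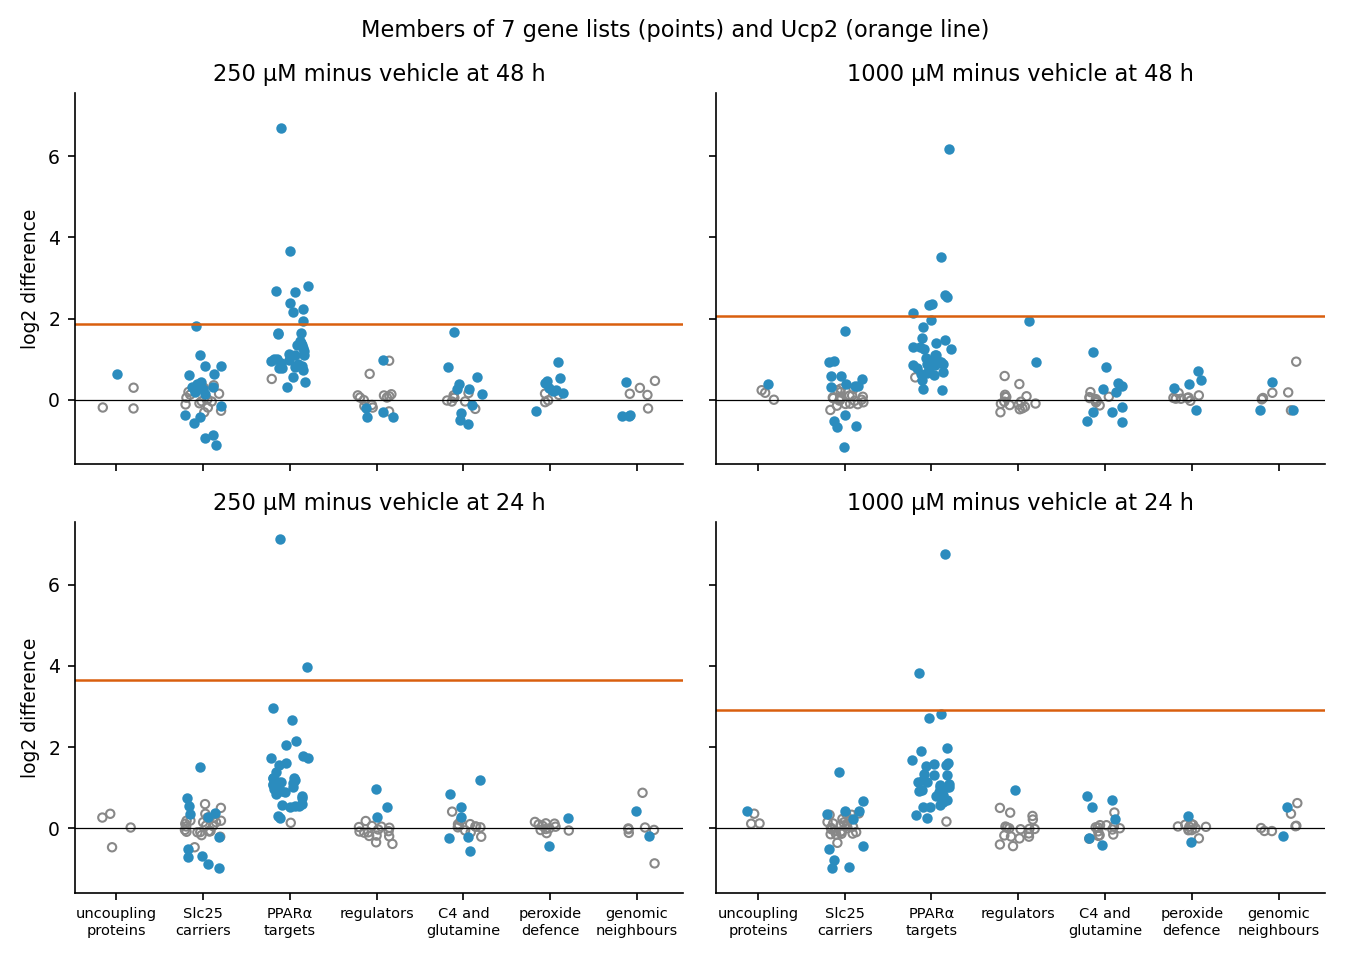
Log2 differences from vehicle of the tested members of 7 gene lists, in 4 panels with 48 h above and 24 h below. Filled points were called (adjusted p under 0.05), open points were not, and the orange line is the difference of Ucp2 with the signals as given; measured from the low-signal limit it would lie at 1.73 and 1.93 at 48 h and at 1.82 and 1.09 at 24 h for 250 µM and 1000 µM.

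Counts of called genes among the transcription factors and cofactors tied to Ucp2 varied with the processing. Of 18 tested regulators, 1 was called higher and 4 lower for 250 µM at 48 h, 2 higher and 0 lower for 1000 µM at 48 h, 3 and 0 for 250 µM at 24 h, and 1 and 0 for 1000 µM at 24 h, all shares at or under those of all genes except the higher calls for 250 µM at 24 h. With the mean over the probe sets of a gene, 5 regulators were called for 250 µM at 24 h and 4 for 1000 µM at 48 h. With the actin ratio as a covariate, 2 were called for 250 µM and 4 for 1000 µM at 48 h. Rxrg, a partner receptor of PPARα, was called higher in each of the 4 comparisons. Its log2 differences were 0.97 and 0.93 at 48 h and 0.98 and 0.95 at 24 h for 250 µM and 1000 µM. Ppara itself was called higher only for 1000 µM at 48 h, at 1.93, where the mean signal was 417 ± 117 against 106 ± 10.1 in vehicle (SD, n = 5 each), and the vehicle level was under the low-signal limit. Its other log2 differences were 0.96 for 250 µM at 48 h, and 0.18 for 250 µM and 0.51 for 1000 µM at 24 h. Esrra, a receptor that drives mitochondrial genes, rose by 0.53 for 250 µM at 24 h, and Hnf4a, a factor of hepatocyte identity, fell by 0.41 for 250 µM at 48 h. The calls of Ppara and Hnf4a at 48 h were lost with the 4 vehicle arrays of raised actin ratio left out.

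Genes that make or use the acids carried by uncoupling protein 2 changed in both directions. Of 19 tested genes of four-carbon acid and glutamine handling, 7 were called higher and 4 lower for 250 µM at 48 h, 6 and 5 for 1000 µM at 48 h, 4 and 3 for 250 µM at 24 h, and 4 and 2 for 1000 µM at 24 h. Without the 4 vehicle arrays of raised actin ratio, fewer were called at 48 h, as over all genes. With array medians centred 7 were called for 1000 µM at 48 h. Pck1, which turns oxaloacetate into phosphoenolpyruvate, rose by 1.66 and 1.18 at 48 h and by 1.19 and 0.70 at 24 h for 250 µM and 1000 µM. Me1, the cytosolic malic enzyme, rose by 0.81 and 0.80 at 48 h and by 0.86 and 0.79 at 24 h. Acly, which splits citrate into acetyl-CoA and oxaloacetate, fell by 0.50 and 0.31 at 48 h and by 0.56 and 0.42 at 24 h. Cs, citrate synthase, rose by 0.54 and 0.53 at 24 h and by 0.27 for 1000 µM at 48 h, with 0.16 and no call for 250 µM at 48 h. The calls of Acly at 48 h were lost without those 4 arrays, and that of Cs for 1000 µM at 48 h with medians centred.

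Genes of mitochondrial and peroxide defence, a process in which uncoupling protein 2 is often studied, were called mostly at 48 h. So were genes as a whole. Over all genes the share was 41.2% and 29.7% at 48 h, against 19.3% and 19.5% at 24 h, for 250 µM and 1000 µM. Of 13 tested genes of this list, 8 were called higher and 1 lower for 250 µM at 48 h, and 4 and 1 for 1000 µM. At 24 h it was 1 and 1 for each dose. Without the 4 vehicle arrays of raised actin ratio, which leaves 1 vehicle array at 48 h, fewer were called at that time, as over all genes. Prdx3, the mitochondrial peroxiredoxin, rose by 0.53 and 0.47 at 48 h and by 0.25 and 0.30 at 24 h for 250 µM and 1000 µM. Gsr, glutathione reductase, rose by 0.93 and 0.70 at 48 h, with 0.10 and 0.11 and no call at 24 h, and Txn2, mitochondrial thioredoxin, rose by 0.42 and 0.29 at 48 h, with 0.12 and 0.04 and no call at 24 h. Idh2, a mitochondrial source of NADPH, was the member called lower, by 0.28 and 0.26 at 48 h and 0.43 and 0.35 at 24 h. Among these, the calls at 48 h of Idh2 at both doses and of Gsr and Txn2 for 1000 µM were lost without those 4 arrays, and that of Prdx3 for 250 µM at 24 h with medians centred.

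The genes around Ucp2 did not rise with it to a like extent. Of the 10 nearest named protein-coding genes, 5 on each side, 9 were tested, and 1 was called higher in each comparison. That gene was Plekhb1, 153.2 kb after Ucp2, with log2 differences of 0.45 and 0.43 at 48 h and 0.42 and 0.52 at 24 h for 250 µM and 1000 µM. Rab6a, a GTPase of Golgi transport, fell by 0.41 and 0.26 at 48 h and by 0.18 and 0.18 at 24 h. Ppme1, a methylesterase of protein phosphatase 2A, fell by 0.40 and 0.24 at 48 h, and Pgm2l1 fell by 0.38 for 250 µM at 48 h. Without the 4 vehicle arrays of raised actin ratio, the calls of neighbours at 48 h were lost, except that of Ppme1 for 250 µM. With array medians centred, Rab6a was not called at 24 h and Pgm2l1 was not called at 48 h. Ucp3, 10.5 kb before Ucp2, has its values above, and Dnajb13, 3.0 kb after it, had differences of 0.46 and 0.94 at 48 h and 0.88 and 0.62 at 24 h without a call, with an SE of 0.45. The other tested neighbours, C2cd3, Coa4 and Mrpl48, were not called, and P4ha3 had no tested probe set.

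**Figure D4:**
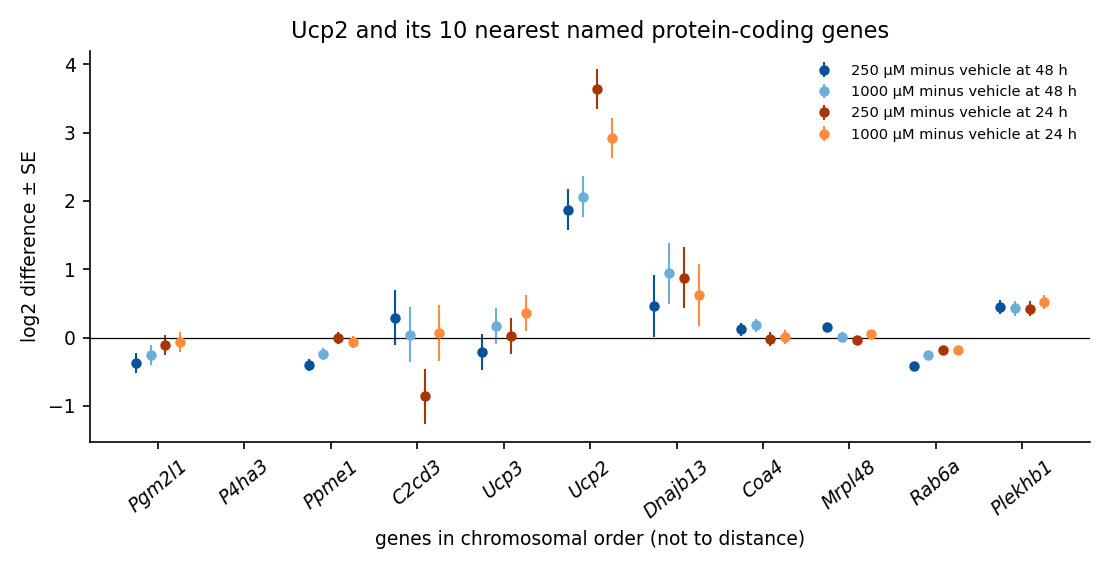
Log2 difference from vehicle ± SE (n = 5 arrays a group) for Ucp2 and its 10 nearest named protein-coding genes, in chromosomal order but not to distance, for both doses at 48 h and at 24 h. Ucp2 lies between 1.87 and 3.64, and no neighbour passes 0.94; P4ha3 was not tested and has no points.

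The genes most like Ucp2 were found by Pearson's r of log2 signal over the 30 arrays, which share 6 groups, so that any gene with a like dose and time pattern scores high. They were Oplah (0.94), which opens 5-oxoproline in the glutathione cycle, Pank1 (0.94), which starts coenzyme A synthesis, and Fbxo21 (0.93), part of a ubiquitin ligase. Next came Dgat1 (0.93), which completes triglycerides, Ehhadh (0.93), Serpine2 (0.92), an inhibitor of serine proteases, and Vwa8 (0.92), a mitochondrial ATPase. Reep3 (0.92), of the endoplasmic reticulum, Acad11 (0.92), an acyl-CoA dehydrogenase, and Aco1 (0.92), the cytosolic aconitase, completed the 10. In all, 29 tested genes had an r over 0.9 and 7 an r under -0.9. The 5 lowest were Tdo2 (-0.92), which opens the ring of tryptophan, Ipo7 (-0.91), a nuclear import receptor, Nudt21 (-0.91), of the RNA cleavage machinery, Ier3 (-0.91), an early response gene, and Calm2 (-0.91), a calmodulin.

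After each group's mean was taken away, the r with Ucp2 was 0.76 for Oplah, 0.60 for Pank1 and 0.58 for Ehhadh, and -0.03 for Serpine2. These genes were picked for an r over the same arrays that holds these deviations, so the values only describe them. For Pdk4 and Cpt1a the r was 0.06 and 0.10. The part of RNA quality in these values was not tested. By Spearman's rho 3 of the 10 genes stayed among the 10 most alike, and by r over the 6 group means 0 of 10 did. The order among the closest genes is therefore not firm.

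**Figure D5:**
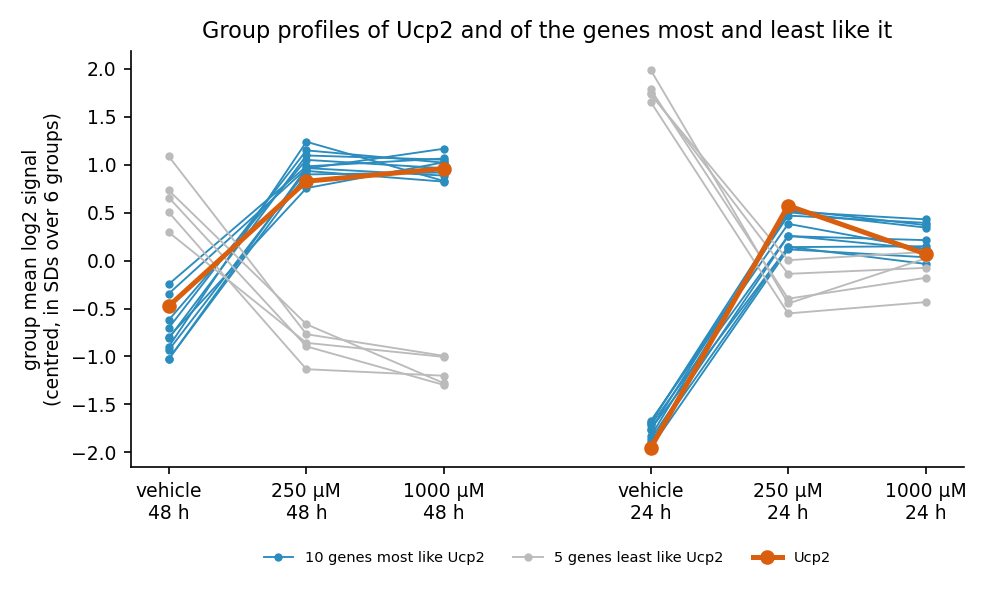
Group mean log2 signal, centred and divided by its SD over the 6 groups, for Ucp2 (orange), the 10 genes most like it (blue) and the 5 least like it (grey), with 48 h at left and 24 h at right. Ucp2 and the blue genes are lowest in vehicle at 24 h, where the grey genes are highest.

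Because Kupffer cells carry much Ucp2 in liver, markers of them and of other leukocytes were read beside it. Of 23 listed, 21 were on the array and 12 were tested. At 48 h Cd14, a receptor for bacterial lipopolysaccharide, was called higher by 0.34 for 250 µM and 0.18 for 1000 µM, and Cd68, a lysosomal protein of macrophages, fell by 0.53 for 1000 µM. Both calls for 1000 µM were lost without the 4 vehicle arrays of raised actin ratio. No marker was called at 24 h in either dose. Ptprc, Cd163, Adgre1, Itgam and Coro1a were among the 9 markers under the low-signal limit. The summed signal of the 12 tested markers had a range of 22290 to 24550 for vehicle, 24980 to 27280 for 250 µM and 23180 to 25240 for 1000 µM at 48 h. At 24 h the range was 24430 to 31090 for vehicle, 25920 to 29130 for 250 µM and 27140 to 30170 for 1000 µM. Cd14 and Lyz2, a lysozyme, made up 75.1% to 87.4% of the sum on every array. The other 10 markers had a median sum of 3785 for vehicle, 4135 for 250 µM and 3602 for 1000 µM at 48 h. At 24 h it was 5883 for vehicle, 5281 for 250 µM and 5154 for 1000 µM.

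Markers of other liver cells were read in the same way. Of 6 tested stellate cell markers, Col3a1, Des and Reln were not called in any comparison. Vim, an intermediate filament protein, fell by 1.70 and 1.41 at 48 h and by 1.28 and 1.19 at 24 h for 250 µM and 1000 µM. Acta2, smooth muscle actin, fell by 0.46 at both doses at 24 h, and Col1a1, a collagen, rose by 0.78 for 250 µM at 48 h, a call lost without those 4 arrays. Eng, the tested endothelial marker with a call, rose by 0.64 for 250 µM at 24 h, and Epcam, of bile duct cells, fell by 0.16 for 1000 µM at 48 h, a call lost with medians centred. Of 13 hepatocyte markers, 1 was called higher and 6 lower at each dose at 48 h, and 1 higher and 5 lower at each dose at 24 h. Over all genes, 15.2% and 11.5% were called higher and 26% and 18.3% lower at 48 h, for 250 µM and 1000 µM. At 24 h these shares were 8.31% and 8.28% higher and 11% and 11.2% lower. The marker called higher was Asgr1, by 0.85 and 0.71 at 48 h and by 0.32 and 0.29 at 24 h. Tat, a tyrosine-degrading enzyme, was lower by 0.89 to 1.18 in log2. The part of cell make-up in the level of Ucp2 was not tested.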

How the data were processed

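RNA of 30 wells was hybridised to Affymetrix rat arrays. The deposited values are probe set intensity on a linear scale, made by the authors with MAS5, per the submitters' processing notes, with version and scaling settings not given in the sources used here. Here log2(signal + 1) was taken, 57 control probe sets and the lowest 40% by mean were left out, and the probe set with the highest mean stood for each gene with 1 symbol, leaving 10528 genes. A limma 3.58.1 model (R 4.3.3) with 6 group means and eBayes with trend gave differences, standard errors and p-values, adjusted by Benjamini-Hochberg. Ucp2 was described with no test. The members and lists were chosen with earlier results of these data known. Named were Ucp2, all measured uncoupling proteins and neighbours, up to 4 called members of each other list with the smallest p, the 10 genes most and 5 least like Ucp2, and Ppara, Pdk4, Cpt1a and Ehhadh. Serial numbers in the titles run through the 6 groups in 5 sets, but the labels do not say what a set shares. No block was used in the main fit, although arrays of 1 set deviated weakly together. A fit with the sets as a block is given below. The code was tested on simulated data. The number of arrays, the unknown source of the wells and weak vehicle signals limit the precision. Alternatives changed the pseudocount, scaling, filter, probe sets, covariate, block and arrays.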

Additional observations from a re-analysis of the deposited data

Results flagged for a closer look

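The ratio of the gap to the range in a group of 5 was read for Ucp2, Ucp3, Pdk4, Ehhadh and Cpt1a alone, in each of 6 groups. Ucp2 had no array far from the rest of its group by it, while Ucp3 and Pdk4 each had 1. Chance alone passes the limit in about 1 of 20 groups of a gene, so flags like these may arise by chance. Ucp3 at 250 µM and 48 h had 1 low array, replicate 1, at a log2 signal of 7.52, with a ratio of 0.851. Pdk4 at 250 µM and 24 h had a low array, replicate 4, at 15.0, with a ratio of 0.764. On the same arrays Ucp2 was at 1223, the highest of its 5 at 250 µM and 48 h, and at 770.6, the lowest of its 5 at 250 µM and 24 h.

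For other named genes the difference from vehicle changed between 24 h and 48 h in the test of that change itself (limma, Benjamini-Hochberg over 10528 genes). The change, 48 h minus 24 h, passed for 10 of 49 named genes at 250 µM and for 3 of 49 at 1000 µM, beside 8.36% and 0.969% of all tested genes. Many of the 49 were named for a small p in the dose differences that make up this change, or for likeness to Ucp2. A larger share among them than over all genes is therefore no result. For 250 µM it was 1.02 for Fabp1, 0.91 for Aqp7, 0.83 for Gsr, 0.34 for Slc25a20, 0.30 for Txn2 and 0.28 for Prdx3. It was -0.44 for Cyp4a1, -0.40 for Ppme1, -0.37 for Cs and -0.31 for Acad11. For 1000 µM it was 0.78 for Fabp1, 0.66 for Aqp7 and -0.59 for Cyp4a1. The vehicle arrays at 48 h, 4 of which had a raised beta-actin ratio, enter each of these values, and their part was not tested.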

How the results depend on the processing

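All 130 values of Ucp2 with 1 array left out, and all 40 counts of genes called, kept their direction and moved by less than the limits set, with ranges of 3.43 to 3.91 for 250 µM and 2.71 to 3.19 for 1000 µM at 24 h, and 1.62 to 2.11 and 1.81 to 2.30 at 48 h. Of the 82 other Ucp2 values, 67 moved by less than 1 SD between arrays. With a pseudocount of 64 the 24 h differences were 2.75 for 250 µM and 2.10 for 1000 µM, and the change of the 250 µM difference with time was -1.10. With low signals set to the limit the 24 h differences were 1.82 and 1.09, the vehicle rise was 0.45, and the changes with time were -0.082 and, reversed in sign, 0.83, since all vehicle arrays at 24 h lie under the limit. With the actin ratio as a covariate the 250 µM difference at 48 h was 2.42, its change with time -1.21, and 2782 genes were called for 250 µM at 48 h. With the 4 vehicle arrays of raised ratio left out, leaving 1 vehicle array at 48 h that is assumed to vary like the others, the 48 h differences were 2.88 and 3.07, the vehicle rise 1.13, and the changes with time -0.77 and, reversed, 0.15. In that setting, applied to the counts after the data had been seen, 1379 and 1179 genes were called at 48 h. Of 14 list counts, 11 fell by over 1.5 times. Fewer arrays enter that fit, but with the covariate and no array left out calls also fell. For 250 µM at 48 h they were 2782, against 4342 in the main fit. The parts of array number and RNA quality in the lower counts were not tested. Centring array medians called 1327 and 1284 genes at 24 h, and for 1000 µM 677 were higher and 607 lower, against 872 and 1179 before, a share of 52.7% against 42.5%. The cause was not tested. Of 210 list counts, 180 stayed within 1.5 times. The likeness lists shared 3 and 0 genes with the first. No other Ucp2 probe set exists, so that alternative gave no value. With the 5 sets of consecutive serial numbers as a replicate block, added after the data had been seen, the Ucp2 differences were the same (3.64 and 2.92 at 24 h, SE 0.31), and 2119, 2132, 4450 and 3255 genes were called in the 4 dose comparisons. Of 28 list counts, 1 moved by over 1.5 times. Of 75 pairs of arrays in 1 set, 19 had a correlation of deviations over 0.1. The median was 0.041, against -0.012 for other pairs of arrays in different groups. Of 30 arrays, 15 correlated best with their own set among the 5, so the sets share some structure, whose source was not tested.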
